A study of Mus musculus with 8 samples.

Results

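The BCL2 family and the regulators closest to it decide whether a cell under stress lives or dies. The set described here held 10 mouse genes: the guardians Bcl2, Bcl2l1, Mcl1, Bcl2a1b and Bcl2a1d, the effector Bax, the BH3-only genes Bcl2l11, Bid and Pmaip1, and Cflar. They were chosen by name, and every open chromatin peak that the deposited table assigns to one of them was taken, which gave 149 of 104981 peaks and 10 of 18207 genes. Open chromatin was measured by ATAC-seq, in which a transposase cuts accessible DNA, in microglia taken from the cortex with a Percoll gradient and flow sorting. Mice of postnatal day 30 had received interleukin-33 (IL-33) or vehicle by injection into a cerebral ventricle on 1 side, and tissue was taken 4 hours later. Each group had 4 mice, male and female, and each library came from a separate mouse. The labels used here give no strain or genotype for either group, and library numbers below are those of the table's columns, which are not tied to a mouse or its sex.

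In the mitochondrial pathway of cell death, BAX makes pores in the outer mitochondrial membrane, and the guardian proteins BCL-2, BCL-XL (Bcl2l1), MCL-1 and A1 (Bcl2a1) hold it back. BH3-only proteins such as BIM (Bcl2l11), BID and NOXA (Pmaip1) release or activate the effectors. Cflar encodes c-FLIP, a caspase-8 homologue that blocks signalling from death receptors and is not itself a BCL2 family protein. IL-33 is a cytokine of the interleukin-1 family whose receptor ST2 signals to NF-kB, and genes of A1, BCL-XL and c-FLIP are known NF-kB targets.

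At 4 hours, 28 of the 133 tested peaks of these genes were more open after IL-33 and 0 were less open, and none of the 28 was at a promoter. Only 23 of the 133 were promoter peaks, and over all genes 2.45% of promoter peaks were raised, so 0 is near that share. Raised peaks lay at 7 of the 10 genes, with 12 in introns of Cflar, 5 in introns of Bcl2l1, 4 around Mcl1, 4 downstream of Pmaip1 and 1 each at Bcl2, Bid and Bcl2a1b. Bcl2l11, Bax and Bcl2a1d had none. The raised share of 21.1% stood beside 8.53% of all 94480 tested peaks, and the lowered share of 0% beside 4.99%. Of the 28, 14 were in the authors' IL-33 peak list alone, so their direction follows in part from how they entered the table. Levels are tags scaled to 10000000 per library, tests were made with limma on log2(tags + 1.155), and a peak is called raised or lowered at an adjusted p (Benjamini-Hochberg over all tested peaks) under 0.05. At an unadjusted p under 0.05, 40 member peaks were higher and 7 lower. Every peak has the same standard error of 0.34 on the log2 scale, since limma took 1 common spread, so very small p-values should not be read literally.

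The libraries held 35842688 to 43857673 tags. The share of tags that fell in peaks was 20.8% to 27.9% in vehicle libraries and 14.2% to 31.3% in IL-33 libraries and gave no detectable difference between groups (two-sided exact permutation p = 0.857; this design cannot go below 0.0286), with the lowest share in IL-33 library 2. That library is also low in the gene totals below, so results are also given after median-ratio scaling, which divides each library by its typical level over peaks (0.599 for IL-33 library 2). With that scaling 41 member peaks were raised and 7 lowered (4 at Bcl2l11 and 3 at Bid), beside 15.2% and 10.8% of all peaks. The sorted cells carried promoter peaks at 8 of 8 microglia markers, with a summed level of 1841 to 2618 tags per kb across vehicle libraries and 1068 to 2394 across IL-33 libraries. Among these markers the groups were apart only at Siglech. It had 429, 405, 306 and 355 tags per kb in vehicle libraries and 195, 71.9, 113 and 213 in IL-33 libraries. Of the other markers examined, 1 of 6 of border macrophages and monocytes (Mrc1), 2 of 5 of neutrophils, 1 of 5 of lymphocytes, 2 of 5 of neurons, 1 of 4 of astrocytes, 3 of 4 of oligodendrocytes and 2 of 3 of endothelium had a promoter peak. Oligodendrocyte markers summed to 216 to 280 tags per kb across vehicle libraries and 97.3 to 281 across the others, and the part of such cells in the results was not tested. In bulk samples, a change in openness per cell and a change in the share of cells cannot be told apart.

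Sequence is shown for the Bcl2a1 promoters, since, of the 10 peaks nearest to each gene's start site, those of Bcl2a1b and Bcl2a1d were the only ones that any scaling or tool tried called raised. A second promoter-class peak of Cflar (chr1:58712626-58712863, 41.4 against 54.5 tags) was not called as deposited and was raised with median-ratio scaling (limma, adjusted p = 0.0339). Mouse Bcl2a1 exists as several near-identical copies on chromosome 9, of which Bcl2a1a was not among the 10 genes and is given for comparison. The windows run from 250 bases before to 50 after the start site (RefSeq, GRCm38.p6), 5′ to 3′ on the gene's strand. Capitals mark matches to an AP-1 motif (TGANTCA) and, after it, to a PU.1/ETS motif (GAGGAAGT).
Bcl2a1b, chr9:89199023-89199322, plus strand: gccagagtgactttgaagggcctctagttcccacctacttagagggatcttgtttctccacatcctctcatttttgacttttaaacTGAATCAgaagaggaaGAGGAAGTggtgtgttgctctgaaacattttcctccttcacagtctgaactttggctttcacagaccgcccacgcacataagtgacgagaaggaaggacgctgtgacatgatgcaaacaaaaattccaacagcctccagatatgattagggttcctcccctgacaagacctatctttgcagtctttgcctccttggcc
Bcl2a1d, chr9:88731801-88732100, minus strand: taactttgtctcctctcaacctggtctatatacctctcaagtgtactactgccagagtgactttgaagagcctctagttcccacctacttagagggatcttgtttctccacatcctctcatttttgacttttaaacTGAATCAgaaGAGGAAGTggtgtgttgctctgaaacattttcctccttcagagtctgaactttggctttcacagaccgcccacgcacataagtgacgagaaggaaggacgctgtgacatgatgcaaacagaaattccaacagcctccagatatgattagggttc
Bcl2a1a, chr9:88956670-88956969, plus strand: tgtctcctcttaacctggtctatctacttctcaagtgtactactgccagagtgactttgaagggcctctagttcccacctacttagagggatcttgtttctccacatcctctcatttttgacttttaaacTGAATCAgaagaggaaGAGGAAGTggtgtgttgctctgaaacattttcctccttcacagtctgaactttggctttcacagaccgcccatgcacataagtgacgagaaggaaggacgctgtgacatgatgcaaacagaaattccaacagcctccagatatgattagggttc

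The 3 windows were 98% to 99.2% identical over their aligned bases. The windows of Bcl2a1a and Bcl2a1d end at the same point of that shared stretch, while the start site of Bcl2a1b is annotated at a different point. Reads from such copies can be placed at the wrong copy, so levels of single copies are uncertain. The AP-1 match began at -164 in Bcl2a1b, -114 in Bcl2a1d and -120 in Bcl2a1a, counted from the start site, and this motif reads the same on both strands. The PU.1/ETS match began at -148, -104 and -104. Fewer bases lie between these matches in Bcl2a1d than in the other copies. Both motifs were searched on both strands in 12 RefSeq windows of 9 members. Pmaip1, on chromosome 18, was left out of this search. Among those 12 windows the motifs occurred only in Bcl2a1b and Bcl2a1d. Over 32851 promoter windows of the same length, 7.81% held the AP-1 motif and 3.2% the PU.1/ETS motif. An NF-kB motif (GGGAANNNCC), held by 5.78% of all windows, a TATA box (TATAAA, 13.6%) and a CCAAT box (CCAAT, 37.4%) were also searched. The NF-kB motif was in none of the 12 windows, the TATA box in that of Cflar, and the CCAAT box in both windows of Bcl2l11. These matches describe the letters of the windows and say nothing of what binds there.

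The promoter peaks, taken as the peak nearest to the listed start site, ranged widely in vehicle libraries. Per kb of peak, Bcl2l11 had the highest level, 504 ± 67.5 tags (SD, n = 4), followed by Bcl2 with 401 ± 29.1 and Mcl1 with 318 ± 47.7. Bid (261 ± 40.2), Pmaip1 (242 ± 32.1), Bax (164 ± 37.9), Bcl2l1 (146 ± 24.4) and Cflar (119 ± 16.5) came next. Bcl2a1d (86.2 ± 16.1) and Bcl2a1b (67.6 ± 12.1) were lowest. Each gene overlapped its neighbour in this order across libraries. Bcl2l1 had a stronger promoter-class peak 0.3 kb from its start site, at 422 tags per kb, which this order leaves out. None of the 10 promoter peaks passed the test in either direction, and in all of them the groups overlapped, beside 1.68% raised and 1.39% lowered among the 12877 nearest promoter peaks of all genes. Over all 23 tested member peaks of the promoter class, 0 were raised, near the 2.45% of such peaks over all genes.

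**Figure D1:**
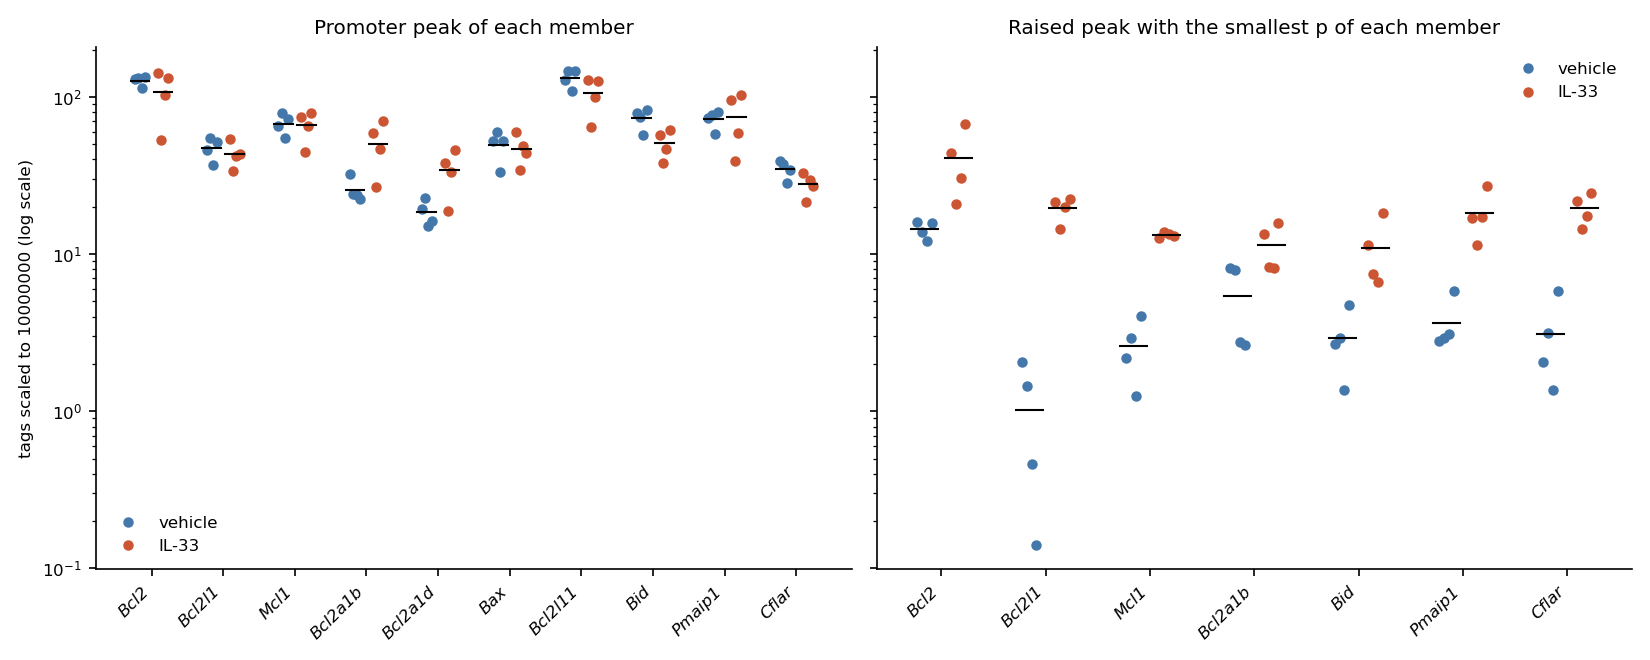
Levels in every library, in tags scaled to 10000000 per library, on a log axis, for the promoter peak of each gene (left) and for the raised peak with the smallest p of the 7 genes that had one (right). Points are libraries (4 per group) and bars group means. At the promoters the groups overlap, and at 6 of the 7 raised peaks, Bcl2a1b being the exception, every IL-33 library lies above every vehicle library.

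Among the guardian genes, 11 of 52 tested peaks were raised (21.2%, beside 8.53% of all peaks). Their median log2 change was 0.25, beside -0.14 over all peaks tested. Bcl2l1, which encodes BCL-XL and, by splicing, its short pro-death form, had 5 raised peaks of 17 tested, all intronic. The strongest lay 5.8 kb downstream of the start site (chr2:152825772-152826083). Vehicle libraries 1 to 4 had 2.05, 1.45, 0.46 and 0.14 tags there, and IL-33 libraries 1 to 4 had 21.4, 14.5, 20 and 22.3. Every IL-33 library lay far above every vehicle library, the lowest vehicle value being that of about 1 read. The log2 change was 3.32 ± 0.34 (SE; limma, adjusted p = 4.91e-20), the largest among the peaks of the 10 genes. This peak was in the authors' IL-33 list alone, so its direction follows in part from how it entered the table.

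A second Bcl2l1 peak 25.5 kb into the gene (chr2:152806097-152806446) had 6.14, 6.87, 6.04 and 8.09 tags in the vehicle libraries and 60.3, 36.5, 47.1 and 82.0 in the IL-33 libraries. The groups were again apart, with a log2 change of 2.81 (limma, adjusted p = 2.13e-14). Per kb of peak, this peak had 19.4 tags in vehicle and 161 in IL-33 libraries, beside 146 and 133 at the gene's promoter peak. A stronger promoter-class peak 0.3 kb from the start site (chr2:152831267-152831543) had 422 and 413 tags per kb. Peaks at 5.0 kb and 10.5 kb rose from 2.37 ± 1.37 to 10.9 ± 4.25 tags and from 3.62 ± 2.51 to 9.48 ± 3.41 (log2 changes 1.79 and 1.23), and the 10.5 kb peak missed the threshold without vehicle library 3 (limma, adjusted p = 0.053). Both were in the authors' IL-33 list alone. The fifth, at 22.9 kb and inside an LTR element, rose from 5.64 ± 3.15 to 11.8 ± 3.69 (log2 change 1.07; limma, adjusted p = 0.0156). Its call rested on vehicle library 4, at 1.12 tags, without which the adjusted p was 0.429, and on IL-33 library 1 (0.0778 without it), and it also missed the threshold under median-ratio scaling (0.0634). The windows at the 3 RefSeq start sites of Bcl2l1 each overlapped a peak, and these had levels of 10.2 and 10.3, 73.6 and 80.5, and 47.3 and 43.2 tags in vehicle and IL-33, none of them called. An intronic peak at chr2:152810188-152810472, between the raised ones, went from 67.4 to 51.4 tags and was not called by limma, as deposited or with median-ratio scaling, or by edgeR with library totals, while edgeR with TMM called it lowered.

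Mcl1, whose protein is short-lived and needed by many blood cells, had 4 raised peaks of 18, at -13.7, -7.3, -4.9 and 9.5 kb, on both sides of a gene of 6236 bases. The peak at -7.3 kb (chr3:95651267-95651523) had 2.17, 2.91, 1.25 and 4.05 tags in vehicle libraries and 12.8, 13.9, 13.5 and 13.1 in IL-33 libraries. The IL-33 libraries were within a narrow range there and all above vehicle (log2 change 2.0; limma, adjusted p = 1.61e-07). The peak at 9.5 kb (chr3:95668030-95668325) had 5.76, 3.70, 8.66 and 9.07 tags against 28.8, 22.9, 23.1 and 29.2, also apart (log2 change 1.82; limma, adjusted p = 2.64e-06). The -13.7 kb peak rose from 2.64 ± 1.09 to 7.19 ± 0.61 tags, a call lost with 4 times the pseudocount (limma, adjusted p = 0.0501). At -4.9 kb the level was 22.5 ± 6.48 against 47.6 ± 19.7 with overlapping groups (IL-33 library 2 had 20.9), and the adjusted p of 0.0340 rose to between 0.0568 and 0.175 when any of 6 libraries was left out. The peaks at -13.7 and -7.3 kb were in the authors' IL-33 list alone, so their direction follows in part from that. The promoter peak had 67.7 ± 10.2 against 65.8 ± 15.1 tags.

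**Figure D2:**
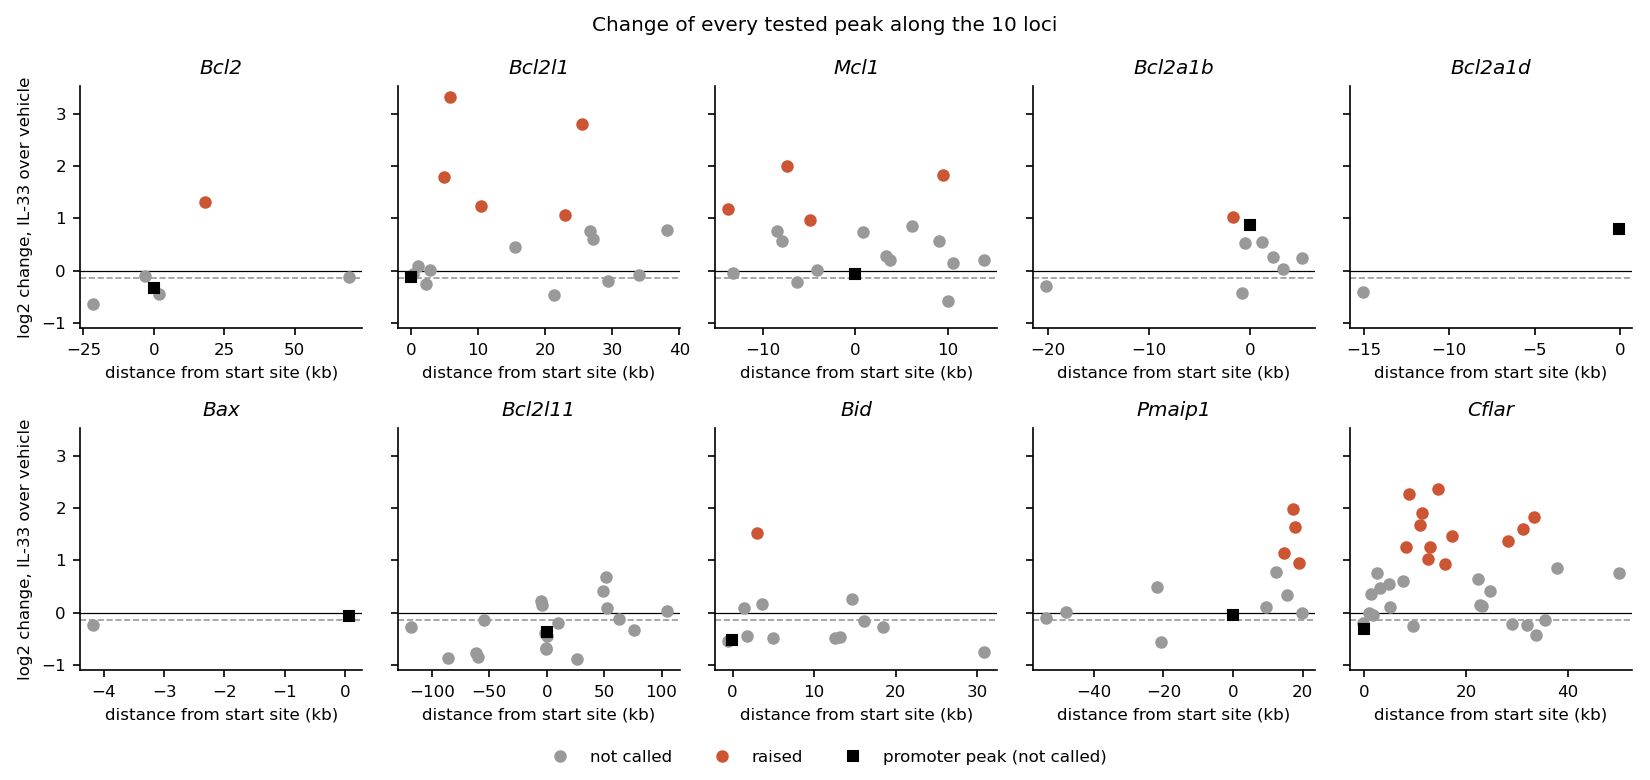
Log2 change (IL-33 over vehicle, each with a standard error of 0.34) of every tested peak against its distance in kb from 1 start site per gene, positive in the direction of transcription. Orange points are raised peaks, grey points were not called, black squares are promoter peaks, and the dashed line is the median over all peaks, -0.14. The 28 raised peaks lie away from the start sites.

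Bcl2, the founding member of the family, had 1 raised peak of 6, in an intron 18.3 kb from the start site and inside an ORR1F LTR element (chr1:106695812-106696146). Vehicle libraries had 15.99, 13.9, 12.2 and 15.8 tags and IL-33 libraries 44.2, 20.98, 30.4 and 67.6. The groups were apart, with a wide range among IL-33 libraries (log2 change 1.31; limma, adjusted p = 0.00175). The other 5 tested peaks of Bcl2 had log2 changes of -0.64 to -0.09.

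At the A1 genes the promoter peak itself had the higher mean level in IL-33 libraries. The Bcl2a1b promoter peak had 32.5, 24.04, 23.7 and 22.5 tags in vehicle libraries and 58.8, 26.6, 46.8 and 69.8 in IL-33 libraries. IL-33 library 2 lay within the vehicle range and the other 3 above it, so that the log2 change of 0.88 missed the threshold (limma, adjusted p = 0.0643), while it passed with median-ratio scaling (0.00145). The Bcl2a1d promoter peak had 19.4, 22.9, 15.2 and 16.3 against 37.99, 18.8, 33.5 and 46.1 tags, with the same pattern (log2 change 0.79; limma, adjusted p = 0.107, and 0.000991 with median-ratio scaling). The 1 raised Bcl2a1b peak, at -1.6 kb in an LTR element, went from 5.38 ± 3.10 to 11.4 ± 3.79 tags with overlapping values, and lost its call when any of 4 libraries was left out (adjusted p = 0.0716 to 0.205, limma).

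At Bcl2a1a, the third copy, 5 of 8 tested peaks were raised. Its promoter peak had 18.2, 17.8, 10.4 and 18.6 tags in vehicle and 47.0, 24.5, 34.6 and 46.9 in IL-33 libraries, with the groups apart (log2 change 1.17; limma, adjusted p = 0.00663). Intronic peaks at 2.2 and 3.2 kb rose from 2.26 ± 1.26 to 21.6 ± 7.44 and from 2.81 ± 0.70 to 29.0 ± 10.4 tags (log2 changes 2.75 and 2.87). An upstream peak at -17.7 kb was almost closed in vehicle libraries (0.26, 0.79, 0.23 and 0.28 tags, a few reads each) and had 8.41, 6.25, 5.86 and 14.1 tags in IL-33 libraries, a log2 change of 2.61 that the added pseudocount makes smaller than the ratio of the levels. The peak at -4.0 kb, in an LTR element, rose from 5.12 ± 2.54 to 14.9 ± 6.01 tags. The raised peaks at -17.7, -4.0, 2.2 and 3.2 kb were in the authors' IL-33 list alone, so their direction follows in part from that. Bcl2a1b peaks at 2.3 and 3.3 kb had 4.07 against 5.21 and 4.21 against 4.46 tags, neither called. Whether the copies differ beyond the placing of reads was not tested.

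**Figure D3:**
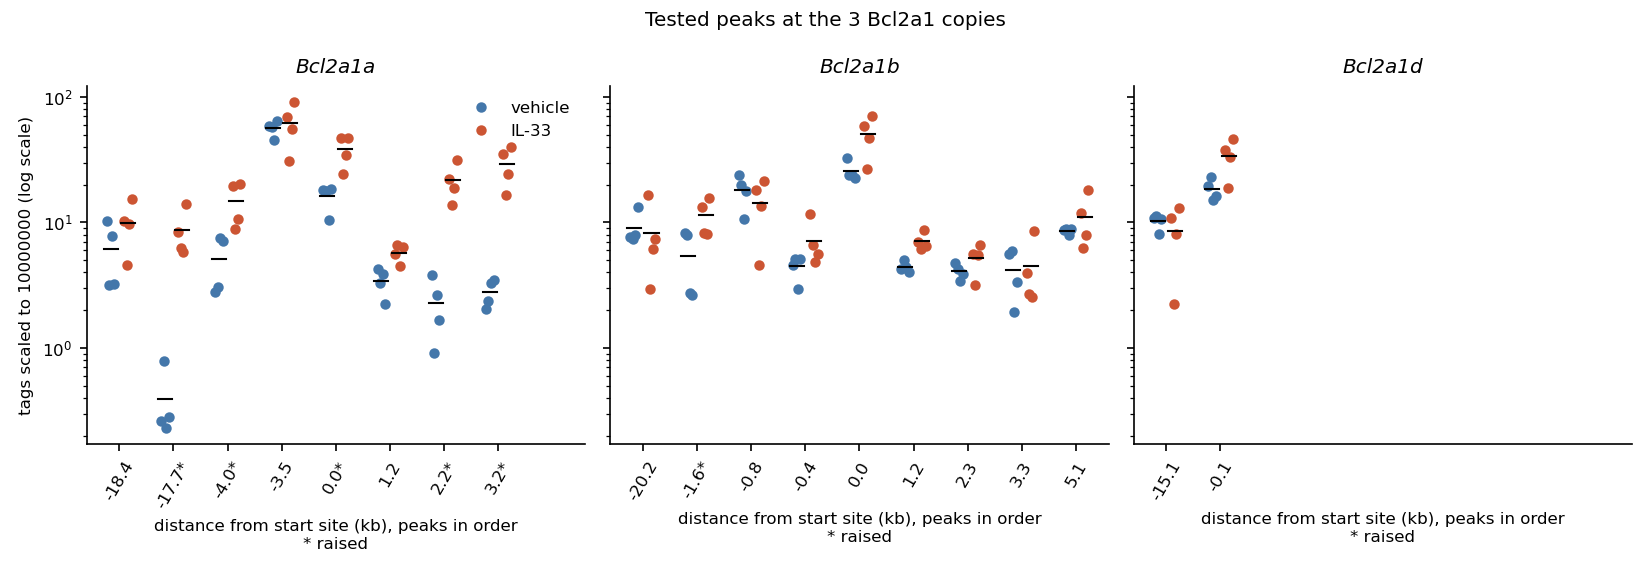
Levels in every library (tags scaled to 10000000 per library, log axis) of all tested peaks at the 3 Bcl2a1 copies, in order of their distance in kb from the start site, with raised peaks starred. Points are libraries and bars group means. Mean levels are higher in IL-33 libraries at the promoter of each copy, by log2 changes of 1.17, 0.88 and 0.79, and the groups are far apart at the Bcl2a1a peaks at -17.7, 2.2 and 3.2 kb.

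Among the pro-death genes Bax, Bcl2l11, Bid and Pmaip1, 5 of 48 tested peaks were raised (10.4%, near the 8.53% of all peaks), with a median log2 change of -0.14, as over all peaks, and 4 of the 5 belonged to Pmaip1. By gene the medians differed, at 0.34 for Pmaip1, -0.16 for Bax, -0.30 for Bcl2l11 and -0.44 for Bid. With median-ratio scaling 7 of the 48 were raised and 7 lowered (14.6% each, beside 15.2% and 10.8% of all peaks). Pmaip1 encodes NOXA, a p53 target that binds MCL-1 and A1. Its raised peaks lay at 14.6 to 18.9 kb, beyond the end of a gene 6955 bases long, within chr18:66473094-66477659, with a peak at 15.4 kb among them that was not called (15.01 against 21.7 tags). The peak at 17.3 kb had 2.81, 2.91, 3.08 and 5.86 tags in vehicle libraries and 17.1, 11.4, 17.3 and 27.1 in IL-33 libraries. The groups were apart, with vehicle library 4 the highest of its group (log2 change 1.99; limma, adjusted p = 1.90e-07). The neighbour at 17.9 kb went from 11.5 ± 3.12 to 40.4 ± 16.8 tags, also apart (log2 change 1.64). The peaks at 14.6 and 18.9 kb went from 7.14 ± 2.17 to 17.2 ± 5.55 and from 2.65 ± 1.17 to 6.19 ± 2.01 tags, the first losing its call without vehicle library 4 (limma, adjusted p = 0.0686) and the second when any of 6 libraries was left out (0.0651 to 0.175). The peaks at 17.3 and 18.9 kb were in the authors' IL-33 list alone, so their direction follows in part from that. The promoter peak (72.3 ± 9.61 against 74.2 ± 30.4) and the strongest peak, at 9.4 kb (107 against 119 tags), were not called.

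Bid, whose protein is cut and activated by caspase-8, had 1 raised peak of 13, in an intron 3.0 kb from the start site (chr6:120913748-120913976). It had 2.69, 2.91, 1.37 and 4.74 tags in vehicle libraries and 11.3, 7.43, 6.62 and 18.3 in IL-33 libraries. All 4 IL-33 libraries were above all vehicle libraries (log2 change 1.53; limma, adjusted p = 0.00014). This peak was in the authors' IL-33 list alone, so its direction follows in part from that. The promoter peak had 73.4 ± 11.3 against 50.8 ± 10.7 tags, a log2 change of -0.53 that was not called as deposited (limma, adjusted p = 0.365) and passed as lowered with median-ratio scaling (0.0452). Bax had only 2 tested peaks, the promoter at 49.4 ± 11.4 against 46.8 ± 10.6 tags and an upstream peak at 11.3 against 9.44, neither called.

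Bcl2l11, which encodes BIM, had peaks from -118.5 kb to 104.7 kb around the start site, the widest spread of the set, and none raised among 20. Its median log2 change was -0.30, and 3 peaks had every IL-33 library below every vehicle library. Those at chr2:128126518-128126720 and chr2:128126846-128127055 were in the authors' vehicle list alone, so their direction follows in part from how they entered the table. The strongest of the 3 (chr2:128067205-128067710) lay 60.1 kb upstream of the start site and was classed as intronic, though outside the gene's own span. It had 59.99, 49.5, 42.2 and 52.3 tags in vehicle libraries and 33.5, 14.6, 31.2 and 37.5 in IL-33 libraries. The log2 change of -0.85 missed the threshold (limma, adjusted p = 0.0776) and passed with median-ratio scaling (0.0041). With that scaling 4 Bcl2l11 peaks were lowered, at -86.0, -61.8, -60.1 and 26.2 kb from the start site, and 1 was raised. On the recovered reads, edgeR called 6 lowered with TMM, the promoter peak among them, and 0 with library totals. Relative to the gene's own promoter peak none of them was lowered, and the promoter had 132 ± 17.7 against 105 ± 30.1 tags, a log2 change of -0.37 that limma did not call.

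Cflar accounted for 12 of the 28 raised peaks, from 33 tested (36.4%, beside 8.53% of all peaks), and had a median log2 change of 0.60. All 12 lay in introns, from 8.2 to 33.3 kb from the start site (chr1:58719595-58744979), and 10 of them had groups apart. The peak at 8.7 kb (chr1:58720057-58720375) had 15.3, 12.9, 9.23 and 10.7 tags in vehicle libraries and 70.5, 43.4, 54.6 and 86.2 in IL-33 libraries. The lowest IL-33 library was well above the highest vehicle library (log2 change 2.27; limma, adjusted p = 1.54e-09). The peak at 14.5 kb (chr1:58725840-58726061) had 2.05, 3.17, 1.37 and 5.86 against 21.8, 14.5, 17.6 and 24.5 tags (log2 change 2.36; limma, adjusted p = 2.51e-10). The groups were apart there too, and this was the largest log2 change at the locus. Peaks at 10.9, 11.2 and 33.3 kb rose from 10.2 ± 1.67 to 35.5 ± 9.15, from 2.84 ± 0.95 to 13.6 ± 1.31 and from 11.2 ± 1.93 to 43.8 ± 12.6 tags. The other 7 raised peaks had log2 changes of 0.93 to 1.61. The peaks at 11.2 and 14.5 kb, and some of those 7, were in the authors' IL-33 list alone. Their direction follows in part from that.

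Other peaks in the same introns were not called. A Cflar peak at chr1:58743344-58743594, between raised peaks, had 68.1 tags with vehicle and 59.2 with IL-33, and the one at chr1:58720839-58721093 had 27.1 and 22.7. The promoter peak had 39.1, 37.2, 28.2 and 34.2 tags in vehicle libraries and 32.6, 21.5, 29.6 and 27.3 in IL-33 libraries. The groups overlapped, with a log2 change of -0.32 (limma, adjusted p = 0.657).

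Setting each peak against the promoter peak of its own gene within the same library cancels a library's scaling factor, apart from the pseudocount. Of 123 member peaks compared in this way, 46 were raised relative to their promoter (37.4%, beside 20.9% of 64384 peaks over all genes) and 7 lowered (5.69%, beside 7.35%). Cflar had 20 of 32 raised, Mcl1 8 of 17, Bcl2l1 6 of 16, Bid and Pmaip1 4 of 12 each, Bcl2l11 3 of 19 and Bcl2 1 of 5. The lowered ones were 5 of 8 at Bcl2a1b and the only peak compared at Bcl2a1d, where the promoter peak had the higher mean in IL-33 libraries, and 1 at Pmaip1 (-20.6 kb). At Bid, 4 peaks passed beside a log2 change of -0.53 at the promoter itself. The promoter peak used for Cflar had a log2 change of -0.32. Other promoter-class peaks of Cflar, at -0.3, 0.8, 1.3 and 1.7 kb, had -0.19, -0.01, 0.35 and -0.05.

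**Figure D4:**
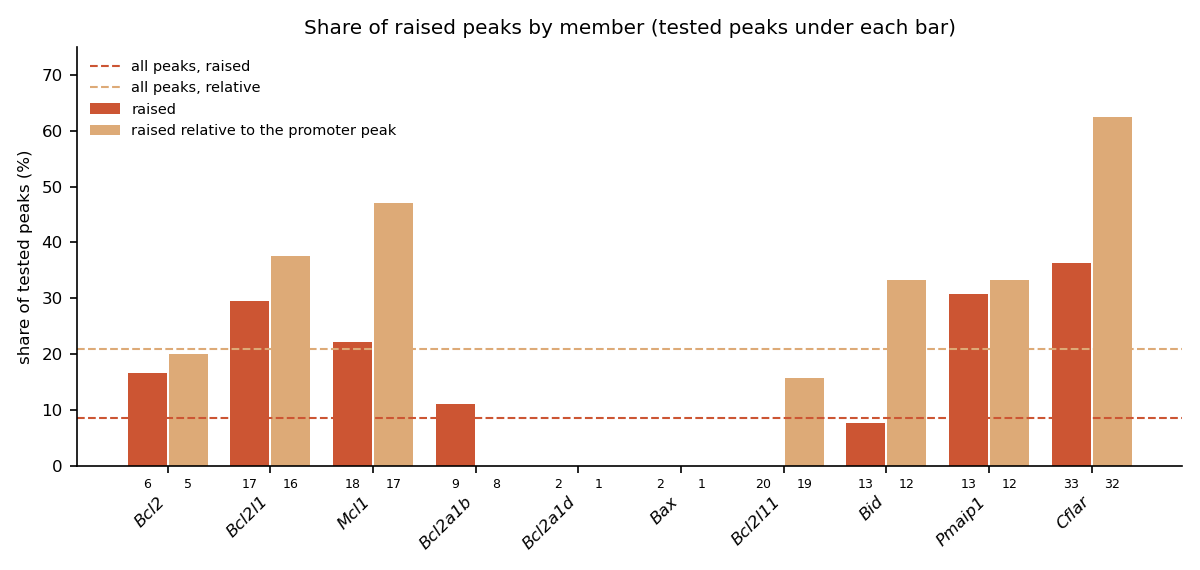
Share of tested peaks that were raised (orange) and raised relative to the promoter peak of the same gene (light), by gene, with the number of peaks tested under each bar. Dashed lines give the shares over all peaks, 8.53% and 20.9%. Cflar, Bcl2l1, Mcl1 and Pmaip1 lie above both lines, and Bax, Bcl2a1d and Bcl2l11 have no raised peak.

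The position of the 28 raised peaks was not used in calling them. Of them, 19 were intronic, out of 64 intronic peaks tested, and 9 intergenic, out of 38, while over all genes 9.82% of intronic, 10.3% of intergenic and 2.45% of promoter peaks were raised. Their median vehicle level was 5.51 tags and their median IL-33 level 18.9, values that the call itself used, and raised peaks over all genes had a vehicle median of 4.19 tags beside 13.9 at peaks not called. Of the 28, 14 were in both peak lists of the authors, out of 96 such peaks tested. The other 14 were in the IL-33 list alone, out of 30 tested, and 0 of 7 tested peaks in the vehicle list alone were raised. A peak listed in 1 group alone entered the table through that group, so its direction follows in part from that. Shares raised over all peaks of each list are not given here, so these counts have no background beside them. Of the 28, 4 overlapped an annotated repeat (14.3%, beside 18.9% of raised peaks over all genes). Every IL-33 library lay above every vehicle library at 21 of the 28, which is not independent of the call. Over all tested member peaks this held at 29 (21.8%, beside 8.06% of all peaks), and the reverse held at 4 (3.01%, beside 5.89%), which were 3 at Bcl2l11 and 1 at Mcl1 (10.1 kb, 21.7 against 14.3 tags).

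The filter on low values left out 16 member peaks with a mean of 1.97 to 4.26 tags, which were not tested. Of these, 14 were in the authors' IL-33 list alone and the other 2 in the vehicle list alone, so the direction of their means follows from how they entered the table and is not counted here.

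Summed over all peaks of a gene, the changes were small against the spread of the IL-33 libraries. As deposited, 0 of the 10 genes passed the limma test in either direction, beside 1.46% of 16386 genes raised and 1.23% lowered, and 1 had an unadjusted p under 0.05. That gene was Cflar, with 621, 600, 414 and 556 tags in vehicle libraries and 1016, 570, 805 and 1072 in IL-33 libraries. IL-33 library 2 lay inside the vehicle range and the other 3 above it (log2 change 0.63 ± 0.28 SE; limma, adjusted p = 0.338). In the sums as deposited the groups overlapped at all 10 genes.

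After median-ratio scaling, 6 of the 10 sums were raised and 1 was lowered, beside 11.8% raised and 15.6% lowered over all genes. The raised sums were those of Cflar (log2 change 0.74), Bcl2a1b (0.58), Bcl2a1d (0.58), Mcl1 (0.52), Bcl2l1 (0.38) and Pmaip1 (0.31), and the lowered one was that of Bcl2l11 (-0.30). Scaled in this way, Bcl2l11 had 497, 495, 501 and 518 tags in vehicle libraries and 398, 413, 428 and 391 in IL-33 libraries. Scaled Cflar sums were 574, 524, 480 and 512 against 829, 951, 886 and 827. In both genes, as at the other 5 that passed, the groups were apart. Bcl2, Bax and Bid were not called and overlapped. The same 6 and 1 counts came from edgeR with TMM and from DESeq2 on the recovered reads, and none passed in edgeR with library totals alone. The median log2 change over all genes was -0.17 as deposited, -0.07 with median-ratio scaling and -0.01 with TMM. Without IL-33 library 2, and with no other scaling, 4 sums were raised (Mcl1, Bcl2a1b, Bcl2a1d and Cflar) and 0 lowered.

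**Figure D5:**
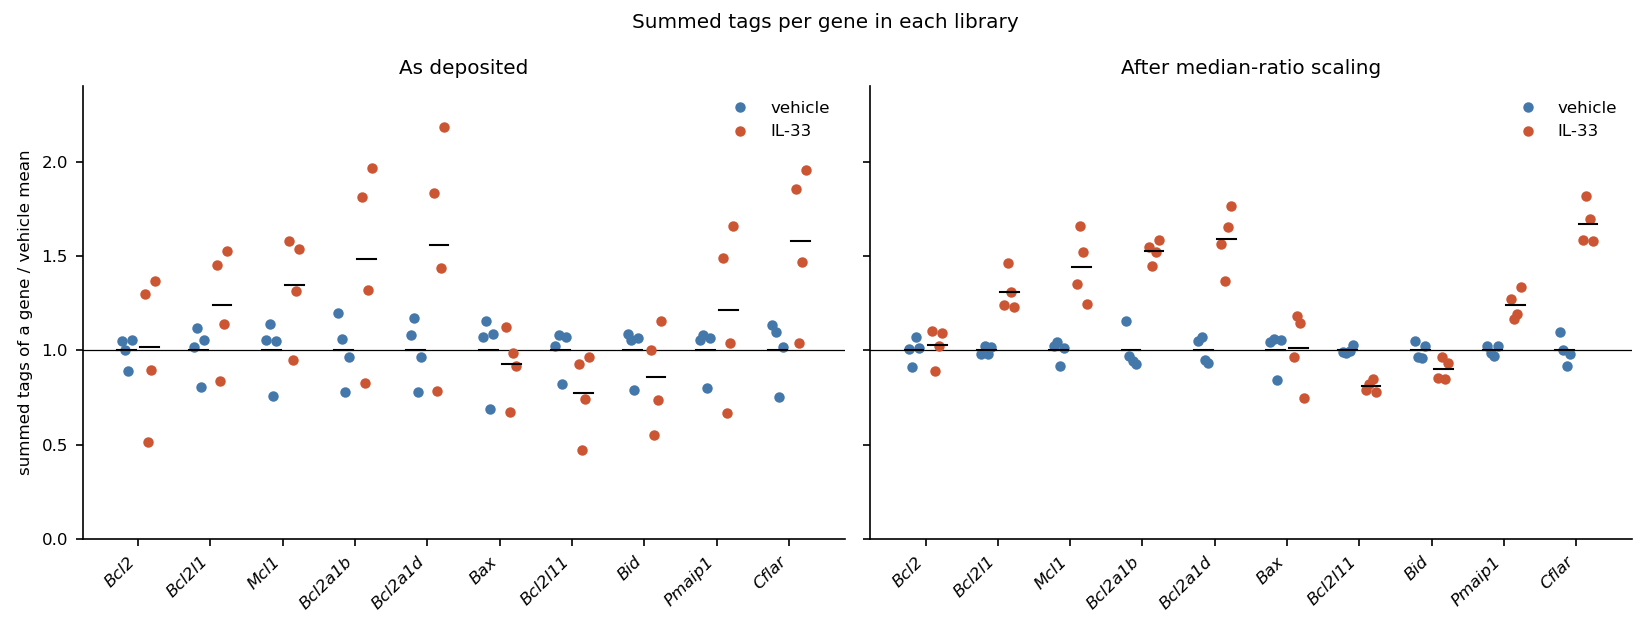
Summed tags of each gene in every library, divided by the vehicle mean of that gene, as deposited (left) and after median-ratio scaling (right). Points are libraries (4 per group) and bars group means. On the left IL-33 libraries spread widely and overlap vehicle at every gene, and on the right they lie apart from vehicle at 7 genes, above at 6 and below at Bcl2l11.

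Of 57 further genes of cell death, 53 had peaks and 52 were tested as sums. As deposited, Bcl2a1a, Casp4 and Birc3 were raised and 0 were lowered in limma, with a median log2 change of -0.12 beside -0.17 over all genes. With median-ratio scaling 12 of the 52 were raised and 5 lowered, beside 11.8% and 15.6% of all genes, with Bak1, Bok, Bnip3 and Aifm1 among the lowered. Birc3 encodes cIAP2, which ubiquitinates RIPK1 in TNF signalling, and its vehicle sum of 194 ± 14.5 tags compares with 424 ± 135 after IL-33 (log2 change 1.05; limma, adjusted p = 0.0104), with 5 of 10 peaks raised. Casp4 encodes the mouse inflammatory caspase-11, and its sum went from 47.4 ± 7.20 to 101 ± 44.0 (log2 change 0.91; limma, adjusted p = 0.0454), with IL-33 library 2 inside the vehicle range. The Bcl2a1a sum went from 95.4 ± 9.45 to 195 ± 69.4 with the groups apart (log2 change 0.93; limma, adjusted p = 0.0378). No gene of these lists passed as raised when any vehicle library, or IL-33 library 1 or 3, was left out, 1 gene passed without IL-33 library 4, and 6 genes passed without IL-33 library 2. Peak by peak, 46 of 326 tested peaks of these genes were raised (14.1%, beside 8.53% of all peaks) and 11 lowered (3.37%, beside 4.99%).

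By list, the other BCL2 family genes had 21 of 126 peaks raised (16.7%, beside 8.53% of all peaks) and 5 lowered (3.97%, beside 4.99%). Of the raised peaks, 11 belonged to Bcl2l14 (28 tested) and 5 to Bcl2a1a. Those of Bcl2l14 lay at -176.7 to 18.9 kb from its listed start sites. Among them, peaks at -176.7, -136.6, -134.2 and -133.6 kb were classed as intronic although far upstream. The lowered ones were 3 at Bnip3 and 1 each at Bok and Bmf. Caspase and apoptosome genes had 5 of 60 raised (8.33%) and 3 lowered (5%), both near the shares over all peaks. Inhibitors of apoptosis had 10 of 39 raised (25.6%) and 0 lowered, and death receptor and necroptosis genes 10 of 101 raised (9.90%, near the share over all peaks) and 3 lowered (2 at Zbp1 and 1 at Tnfrsf1b). Birc2 and Birc3 held 9 of the 10 raised peaks of the inhibitors, and Tnfrsf1b, the gene of TNF receptor 2, held 8 of the 10 of the death receptor list. Casp8, the neighbour of Cflar and the target of its protein, had 1 raised peak of 11 and a sum of 296 ± 45.4 against 252 ± 90.1 tags that was not called.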

How the data were processed

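The deposited table gave, per the file headers, HOMER annotatePeaks signal on mm10: tags in each peak scaled by the authors to 10000000 per library, at most 3 tags per position, over merged reproducible peaks. Bowtie2, HOMER and DESeq2 are named without versions in the submitters' processing notes; for trimming, duplicate removal and any shift of reads, the steps are not given in the sources used here. Columns name the group and not the mouse, so sex was not modelled. Every value was a whole number of reads within 0.006 tags (100%), 1 read being worth 0.114 to 0.139 tags. Peaks were assigned to genes by the nearest start site, which does not show regulation. The lowest 10% of means was left out (10501 peaks). Tests used limma 3.58.1 (R 4.3.3), log2(tags + 1.155) per peak and log2(sum + 5) per gene, two-sided, so folds understate changes of weak peaks. Alternatives used edgeR 4.0.16 and DESeq2 1.42.0 on the recovered reads, other scalings, filters and pseudocounts, and leaving out each library. The limma fit per peak was tested on simulated counts with equal library levels and changes planted only in peaks above the median level. Weak peaks and a low library such as IL-33 library 2 were not covered. Named peaks were each promoter peak and up to 5 called peaks per gene and direction with the smallest p; other peaks named were chosen after their values were seen. Members and lists were chosen with earlier results of these data known. Sequence comes from RefSeq tables (GRCm38.p6); alignments used Biopython 1.88. Single genes behind the peak counts of the caspase and apoptosome list are not all reported here.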

Additional observations from a re-analysis of the deposited data

Results flagged for a closer look

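Among 84 groups of 4 libraries examined, 5 held a library whose gap to its nearest neighbour took up an unusually large share of the group's range, where chance gives about 5% of groups. In vehicle library 3, the lowest of its group, this share was 0.881 for the Bcl2 promoter peak, 0.889 for the Bid sum and 0.915 for the Pmaip1 sum, and that library had the lowest share of tags in peaks among vehicle libraries (20.8%). Vehicle library 1 was high at the Bcl2a1b promoter peak (0.842), where its 32.5 tags compare with 22.5 to 24.04 in the others. Vehicle library 4 was high at the Pmaip1 peak 17.3 kb from the start site (0.911), with 5.86 tags against 2.81 to 3.08. The cause was not tested.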

How the results depend on the processing

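The count of 28 raised member peaks was 45 with edgeR and TMM and 46 with DESeq2, and otherwise 20 to 41 across the scalings, filters and pseudocounts tried. Leaving out 1 library gave 21 to 42, the highest without IL-33 library 2. The 0 lowered peaks became 1 with 4 times the pseudocount, 7, 8 and 5 with median-ratio, quantile and equal-sum scaling, 10 with edgeR TMM and 11 with DESeq2, and 0 to 5 without single libraries (5 when IL-33 library 4 was left out, 1 for IL-33 library 1 or 2). Relative to the promoter, 46 raised peaks became 34 to 55, and 41 to 48 without single libraries; 7 lowered became 12 with quantile scaling and 3 to 7 without single libraries (3 for vehicle library 2 or 4, 4 for IL-33 library 1 or 4). Member sums numbered 6 raised and 1 lowered with each of median-ratio, quantile and equal-sum scaling, edgeR TMM and DESeq2, and 0 to 4 raised without single libraries. The 3 raised sums of related genes became 1 with the lowest 30% left out or with a mean-variance trend, 12, 13 and 12 with the 3 scalings, 12 with edgeR TMM, 13 with DESeq2, and 0 to 6 without single libraries (6 for IL-33 library 2, 1 for IL-33 library 4, otherwise 0). Their lowered sums became 5, 4 and 5 with the 3 scalings and 4 with edgeR TMM and DESeq2. The cause was not tested. The difference in the share of tags in peaks ran from -3.40 to 2.29 percentage points without single libraries. Of the single peaks and sums named by rule, none reversed in 803 comparisons, 29 lost their call and 58 gained one. No paired analysis was possible because the columns carry numbers of libraries within a group and no pairing. A peak with no read in 1 library could still have a level of up to 3 reads there, which is 0.342 to 0.418 tags (counting error only).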
